A study of Pan troglodytes with 217 samples.

Results

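The genes described here are 10 components of the nodal and activin pathway, measured by single-cell RNA sequencing in chimpanzee blastoids on day 4. They were chosen by name as the ligands NODAL and GDF3, the receptors ACVR1B, ACVR2A and ACVR2B, the secreted inhibitors LEFTY1, LEFTY2, CER1 and FST, and the intracellular inhibitor SMAD7. All 10 matched 1 identifier each among the 33729 gene identifiers counted. Their levels were compared between cells that resembled epiblast, hypoblast and trophectoderm.

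Nodal and its relatives are secreted proteins of the TGF-beta superfamily. They bring type I and type II receptors together at the cell surface, and the activated type I receptor phosphorylates SMAD2 and SMAD3, which enter the nucleus with SMAD4. In the early embryo and in pluripotent stem cells the pathway is best known for its part in pluripotency and in mesendoderm induction, and it switches on several of its own inhibitors.

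Blastoids are blastocyst-like structures made from pluripotent stem cells. They were formed from naive chimpanzee induced pluripotent stem cells, which had been maintained with 20 ng/ml activin A, a MEK inhibitor, a tankyrase inhibitor, a protein kinase C inhibitor, LIF, IL6 and the EZH2 inhibitor EPZ-6438. During formation the cell clusters passed through a medium with a MEK inhibitor, A83-01, LPA and Y-27632, then through one with A83-01, LPA and Y-27632, and finally through N2B27 without them. A83-01 blocks the type I receptors of the activin, nodal and TGF-beta branches, among them the product of ACVR1B, so all cells had met activin and then a receptor inhibitor before they were collected on day 4. Most of the mural trophectoderm was cut away, so the share of trophectoderm-like cells describes the cells sequenced and not the blastoid.

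Each deposited sample was 1 cell, and no label named its blastoid, cell line or plate. The cells were therefore treated as 1 sample without replicates, and no test between classes was possible. Cells with reads on at least 8000 genes were kept, and 24 cells were left out. Leiden clustering of the kept cells gave an epiblast-like class of 50 cells, a hypoblast-like class of 32 cells and a trophectoderm-like class in a pair of clusters of 60 and 51 cells, which together held 57.5% of the kept cells. Median depth was alike, at 3951119, 3978822 and 3960857 reads per cell in the epiblast-, hypoblast- and trophectoderm-like classes. The range was 1679888 to 25630392 reads over all kept cells, and the highest totals by class were 8316965, 9491341 and 25630392 reads. Median numbers of detected genes were 11736.5, 10993.5 and 10986 in the same order. No pair of cells had identical counts. Levels are given as counts per 1000000 reads (CPM), either per cell or pooled, which means the reads of a gene summed over a class and divided by all reads of that class. Intervals are exact 95% intervals, Poisson for CPM and Clopper-Pearson for shares, and cover at most counting error. Copies of 1 cDNA molecule were counted more than once, so the Poisson intervals are too narrow even for that. They also leave out the spread between cells. Levels of different genes are not compared with each other, because the counts were not divided by transcript length.

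The classes carried the markers that named them. At least 3 markers of the own list reached 10 CPM in all 50 epiblast-like cells (8 markers), in every trophectoderm-like cell (11 markers) and in 23 of 32 hypoblast-like cells (9 markers). Markers of other classes were also present. Trophectoderm markers, at least 3 of them, reached 10 CPM in 19 epiblast-like and 20 hypoblast-like cells. Epiblast markers did so in 20 hypoblast-like and 19 trophectoderm-like cells. The summed level of the 8 epiblast markers had a median of 2154 CPM in the epiblast-like class (1015 to 4801 CPM), 482 CPM in the hypoblast-like class (94.1 to 1848 CPM) and 102.5 CPM in the trophectoderm-like class (0 to 735 CPM), and none of the 8 was at 0 over a whole class. The hypoblast-like class was the most mixed. Only 5 of its 32 cells had fewer than 3 markers of each other class. No cell had 3 amnion or 3 primitive streak markers at 10 CPM, but some single ones were common. The amnion marker ISL1 was read in 38 epiblast-like cells at 14.7 CPM pooled, and VTCN1 in 78.4% and the mesoderm marker HAND1 in 68.5% of trophectoderm-like cells. Of the other amnion markers, GABRP was read in 9 and IGFBP3 in 22 of all kept cells. Of the other streak or mesoderm markers, TBXT, EVX1, LEF1, MIXL1 and MESP1 were read in 4, 1, 7, 24 and 80 of them. Because the clusters were made from the same reads, differences between classes are a description. With all pathway genes removed, clustering put every kept cell in the same class as before.

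The pathway was unevenly spread over the classes. NODAL and GDF3 were at least 2-fold higher in epiblast-like cells than in both other classes, ACVR1B in hypoblast-like cells and FST in trophectoderm-like cells. These are 2, 1 and 1 of the 7 members that had a read in at least 20 cells. Of all 15804 genes with a read in at least 20 cells, 11.8% passed the same fold in epiblast-like, 3.28% in hypoblast-like and 8.32% in trophectoderm-like cells. Of the 10 members, 7 had a read in at least 50% of epiblast-like cells, 6 in at least 50% of hypoblast-like cells and 5 in at least 50% of trophectoderm-like cells. No share of all genes under this 50% rule is given here. The epiblast-like class also had the most detected genes per cell, so these counts are not read as a difference of the pathway. The type II receptors and SMAD7 were present in most cells of each class, whereas LEFTY1 was found in at most 25% of a class and LEFTY2 and CER1 were rare or absent.

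**Figure D1:**
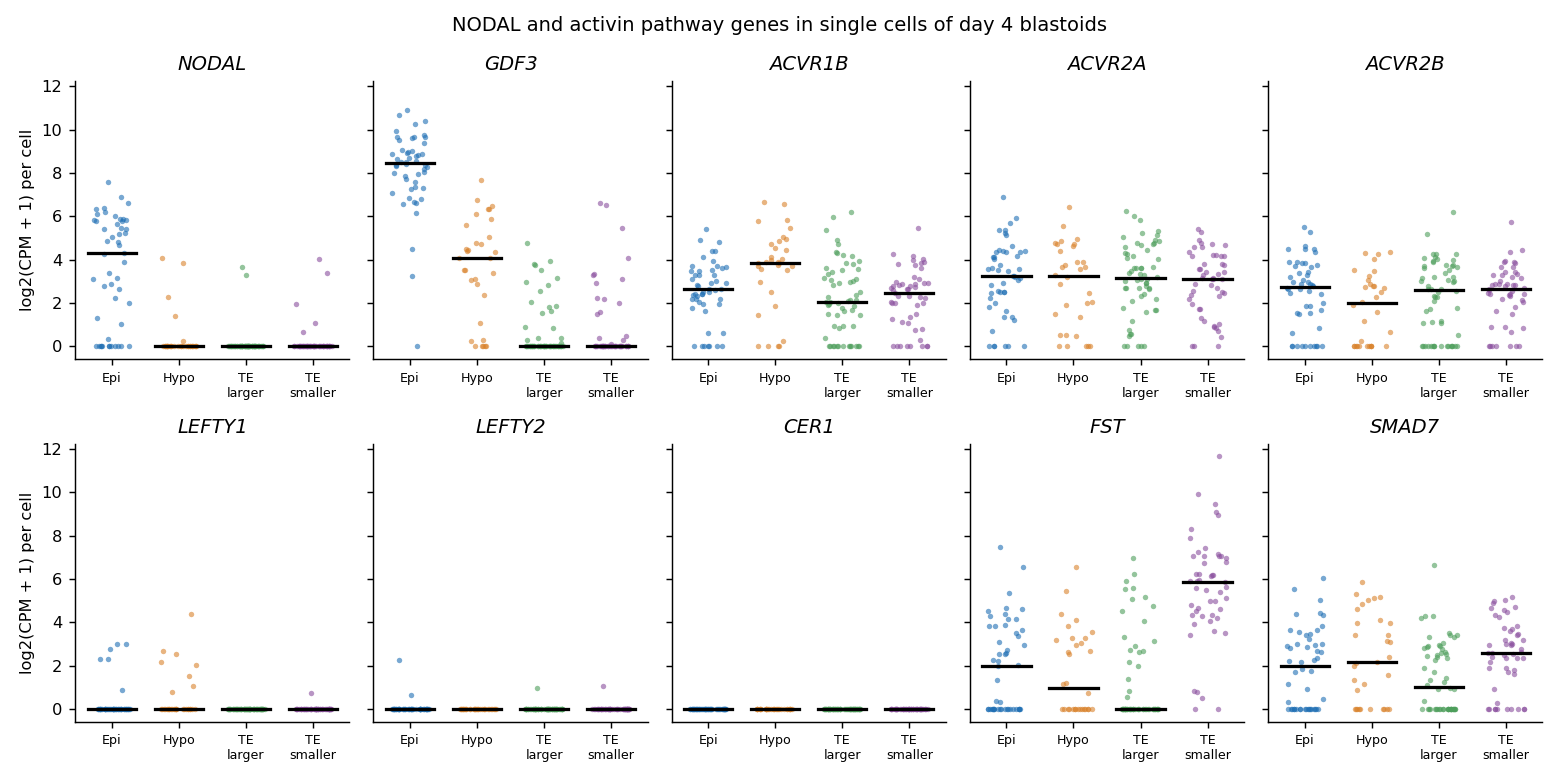
Level of each member in every kept cell, as log2(CPM + 1), for 50 epiblast-like cells (Epi), 32 hypoblast-like cells (Hypo) and trophectoderm-like clusters of 60 and 51 cells (TE larger and TE smaller); points are cells and bars are medians. NODAL and GDF3 are highest in epiblast-like cells, FST in the smaller trophectoderm-like cluster, and the type II receptors overlap throughout.

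NODAL (ENSPTRG00000002592), the ligand that gives the pathway its name, was found mainly in epiblast-like cells. Reads were present in 38 of the 50 epiblast-like cells (76%, 61.8% to 86.9%), against 5 of the 32 hypoblast-like cells (15.6%, 5.28% to 32.8%) and 7 trophectoderm-like cells (6.31%, 2.57% to 12.6%). Per cell, NODAL ranged from 0 to 189.1 CPM in epiblast-like cells with a median of 18.7 CPM, from 0 to 15.8 CPM in hypoblast-like cells with a median of 0, and from 0 to 15.3 CPM in trophectoderm-like cells with a median of 0. The ranges overlapped at the low end only, since 27 epiblast-like cells but 2 cells of each other class reached 10 CPM. The pooled level was 31.7 CPM in epiblast-like cells (30.98 to 32.5), 1.01 CPM in hypoblast-like cells (0.845 to 1.20) and 0.471 CPM in trophectoderm-like cells (0.413 to 0.534), which is 31.4-fold and 67.4-fold higher in epiblast-like cells. The epiblast-like class was itself divided, as 12 of its cells had no NODAL read at all. The values of the lower classes rested on few cells, and without the cell with the most CPM the hypoblast-like level was 0.692 CPM and the trophectoderm-like level 0.279 CPM.

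For comparison, GATA4, a transcription factor of the hypoblast, was read in 7 of the 50 epiblast-like cells and in 7 trophectoderm-like cells. The number of trophectoderm-like cells with NODAL was thus the same as for a gene that marks another lineage.

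GDF3 (ENSPTRG00000004615), a relative of nodal found in pluripotent cells, followed the same order of classes and reached further into the hypoblast-like cells. It was detected in 49 of the 50 epiblast-like cells (98%, 89.4% to 99.95%), in 27 of the 32 hypoblast-like cells (84.4%, 67.2% to 94.7%) and in 37 trophectoderm-like cells (33.3%, 24.7% to 42.9%). The lowest, median and highest cells were at 0, 353 and 1946 CPM in epiblast-like cells, at 0, 15.7 and 203.7 CPM in hypoblast-like cells, and at 0, 0 and 98 CPM in trophectoderm-like cells. A level of 100 CPM was reached by 44 epiblast-like and 2 hypoblast-like cells and by no trophectoderm-like cell. Pooled levels were 456 CPM (453 to 459), 29.1 CPM (28.1 to 30) and 3.57 CPM (3.40 to 3.73), so epiblast-like cells were 15.7-fold above hypoblast-like and 127.9-fold above trophectoderm-like cells. Both lower classes also held epiblast markers, with the summed levels given above, and the part these play in GDF3 was not tested.

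The receptors showed less contrast. ACVR1B (ENSPTRG00000004964) encodes ALK4, the type I receptor used by nodal and activin. It was detected in similar shares of the classes, with 86% in the epiblast-like class (73.3% to 94.2%), 87.5% in the hypoblast-like class (71.01% to 96.5%) and 81.1% in the trophectoderm-like class (72.6% to 87.9%). Its level was higher in hypoblast-like cells, where the lowest, median and highest cells were at 0, 13.6 and 98.8 CPM, against 0, 5.21 and 42.3 CPM in epiblast-like and 0, 3.87 and 72.2 CPM in trophectoderm-like cells. The ranges overlapped widely, although 23 of 32 hypoblast-like cells reached 10 CPM, against 14 of the 50 epiblast-like cells and 25 trophectoderm-like cells. Pooled, ACVR1B was at 20.6 CPM in hypoblast-like cells (19.8 to 21.4), which is 2.88-fold the 7.14 CPM of epiblast-like cells (6.79 to 7.51) and 2.76-fold the 7.46 CPM of trophectoderm-like cells (7.23 to 7.70).

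ACVR2A (ENSPTRG00000012514) and ACVR2B (ENSPTRG00000014760), the type II receptors for activin and nodal, were nearly even across classes. ACVR2A was detected in 88%, 84.4% and 92.8% of epiblast-, hypoblast- and trophectoderm-like cells, with medians of 8.58, 8.43 and 7.75 CPM per cell and highest cells at 117.1, 84.2 and 75.6 CPM. Its pooled levels of 13.8, 11.6 and 12.4 CPM differed by at most 1.19-fold, far less than the spread between cells of any class. ACVR2B was detected in 80%, 65.6% and 79.3% of cells, with medians of 5.73, 2.98 and 5.22 CPM and highest cells at 44.6, 19.2 and 73.4 CPM. It was lowest in hypoblast-like cells, at 4.73 CPM pooled (4.36 to 5.12) against 7.71 CPM in epiblast-like (7.34 to 8.09) and 6.42 CPM in trophectoderm-like cells (6.20 to 6.64). Neither receptor differed 2-fold between any classes, and only 6 of the kept cells (3.11%) had a read of neither.

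**Figure D2:**
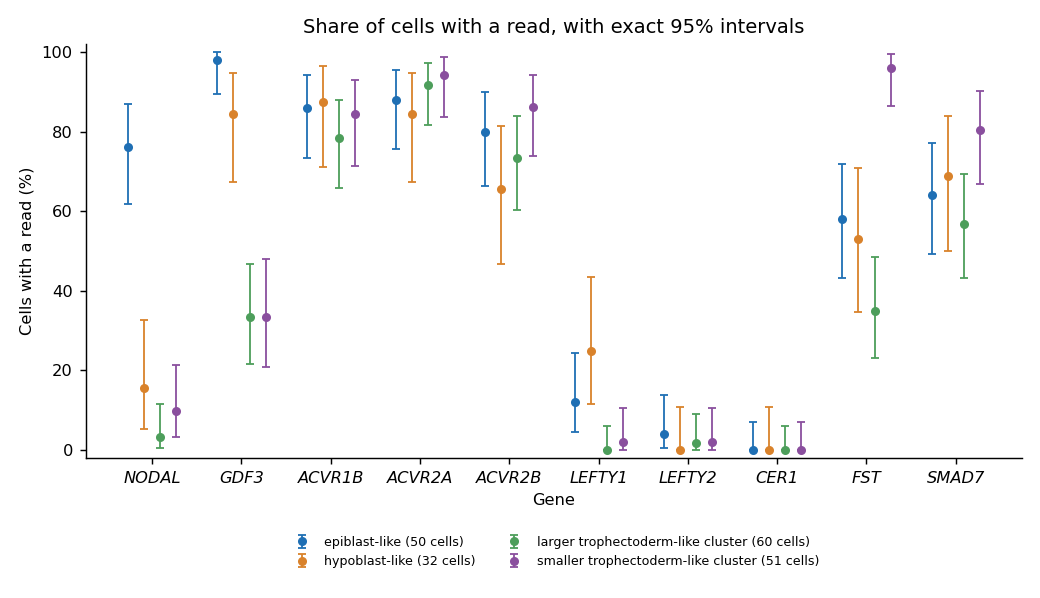
Percent of cells with at least 1 read of each member in the epiblast-like, hypoblast-like and both trophectoderm-like groups; points are shares and bars exact 95% Clopper-Pearson intervals. NODAL stands at 76% in epiblast-like cells and GDF3 falls from 98% to 33.3%, while CER1 is at 0 in every group.

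Of the secreted inhibitors, LEFTY1 was found in a minority of cells, LEFTY2 and CER1 were nearly absent or absent, and FST was abundant in a subset of trophectoderm-like cells. LEFTY1 (ENSPTRG00000049763) and LEFTY2 (ENSPTRG00000002043) encode antagonists of nodal that are also well known as its targets. LEFTY1 was detected in 6 of the 50 epiblast-like cells (12%, 4.53% to 24.3%), in 8 of the 32 hypoblast-like cells (25%, 11.5% to 43.4%) and in 1 trophectoderm-like cell. The epiblast-like cells with LEFTY1 held 0.830 to 6.94 CPM and the hypoblast-like ones 0.709 to 19.8 CPM, and the trophectoderm-like cell held 3 reads. Pooled levels were 0.586 CPM in epiblast-like cells (0.488 to 0.697) and 1.28 CPM in hypoblast-like cells (1.095 to 1.495). Much of the hypoblast-like level came from 1 cell. Without it the level was 0.621 CPM, which was still above the epiblast-like level but inside its interval. Without the top cell of each class the hypoblast-like level was 0.621 CPM and the epiblast-like level 0.464 CPM. The epiblast-like share was also no higher than that of GATA4. NODAL was also read in 5 of the 6 epiblast-like cells with LEFTY1, and in 2 of the 8 hypoblast-like ones.

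LEFTY2 had 13 reads in 2 epiblast-like cells, 7 reads in 2 trophectoderm-like cells and none in the 32 hypoblast-like cells, which by 3 counts allows a share with a read of up to 9.38% there. No cell had reads of both genes. The coding sequences of LEFTY1 and LEFTY2 are very similar, so reads that fit both could have been lost or split in counting, and the values of both are uncertain. CER1 (ENSPTRG00000020781), a secreted nodal and BMP antagonist known from the anterior visceral endoderm, had no read in any kept cell. By the limit of 3 counts this allows a share with a read of up to 1.55% of all kept cells and 9.38% of hypoblast-like cells, whereas the upper exact 95% bounds are 1.89% and 10.9%. These limits concern cells with a read and not cells that express the gene. The pooled level in the hypoblast-like class is limited to 0.0233 CPM by 3 counts.

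FST (ENSPTRG00000016863) encodes follistatin, which binds activin and keeps it from its receptors. It was detected in similar shares of the classes, with 29 epiblast-like cells (58%, 43.2% to 71.8%), 17 hypoblast-like cells (53.1%, 34.7% to 70.9%) and 70 trophectoderm-like cells (63.1%, 53.4% to 72.03%). The amounts differed. The lowest, median and highest cells were at 0, 3.03 and 177.4 CPM in epiblast-like cells, 0, 0.978 and 94.3 CPM in hypoblast-like cells, and 0, 9.83 and 3234 CPM in trophectoderm-like cells. Pooled levels were 9.76 CPM (9.35 to 10.2), 7.60 CPM (7.13 to 8.09) and 102.4 CPM (101.6 to 103.3), so trophectoderm-like cells were 10.5-fold above epiblast-like and 13.5-fold above hypoblast-like cells.

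The high FST of the trophectoderm-like class came from its smaller cluster. In the cluster of 51 cells FST was detected in 49 (96.1%, 86.5% to 99.5%), with a median of 58.04 CPM and a pooled level of 200.7 CPM. In the cluster of 60 cells it was detected in 21 (35%, 23.1% to 48.4%), with a median of 0, a highest cell at 124.8 CPM and a pooled level of 9.68 CPM, about that of epiblast-like cells. A level of 100 CPM was reached by 17 of 51 cells of the smaller cluster, by 1 of 60 cells of the larger one, by 1 epiblast-like cell and by no hypoblast-like cell. Where this class was divided depended on the order in which cells entered the clustering. With cells sorted by accession the clusters held 72 and 39 cells, and FST was detected in 31 of the 72 cells at 11.5 CPM and in all 39 of the others at 247.5 CPM.

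A single cell weighed heavily on FST. It stood at 3234 CPM, against 961 CPM in the next cell. It held 21358 of the 52904 FST reads of the trophectoderm-like class, and had 7 trophectoderm and 3 epiblast markers at 10 CPM. The same cell was the one with the most NODAL in that class, at 15.3 CPM, and held GDF3 at 91.3 CPM. Without it the class stood at 61.9 CPM and the smaller cluster at 118.7 CPM. At a Leiden resolution of 1.5 this cell and 1 other moved to the epiblast-like class, which then exceeded the trophectoderm-like class in FST with 106.2 against 61.4 CPM. The medians and the shares of cells do not rest on that cell.

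Over both trophectoderm-like clusters together, FST varied with markers of trophectoderm maturation. These partners were chosen with earlier results known. Over all trophectoderm-like cells, Spearman's rho of FST was 0.67 with CCR7, which marks the later polar trophectoderm, 0.58 with CGA, the alpha subunit of chorionic gonadotropin, and -0.49 with CDX2, a factor of early trophectoderm. These values span both clusters and so include the contrast between them, and no rho within a single cluster is given for these pairs. FST was itself among the genes used to cluster the cells. The pooled level of CCR7 was 315 CPM in the smaller and 5.71 CPM in the larger cluster, and that of CDX2 1.62 and 24.8 CPM. CGA was read in 35 of 51 cells of the smaller and 17 of 60 cells of the larger cluster, at 858 and 18.5 CPM pooled. Without the top cell the level in the smaller cluster was 618 CPM. The smaller cluster was therefore the one with more CCR7 and CGA, and it had high FST and low CDX2. Both clusters differed somewhat in depth, with medians of 4516217 and 3693058 reads. With cells thinned to 2532312 reads, which left out 20 shallower cells of all classes, FST was found in 44 of 46 cells of the smaller and 17 of 54 cells of the larger cluster.

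**Figure D3:**
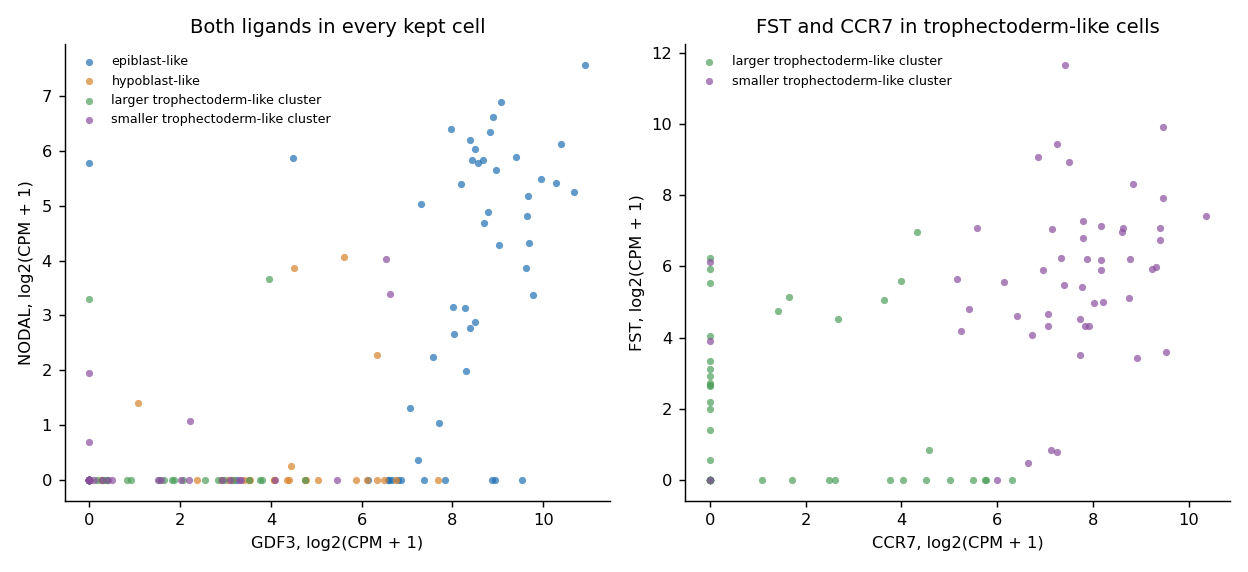
Left, NODAL against GDF3 in all kept cells, and right, FST against CCR7 in the trophectoderm-like clusters of 60 and 51 cells, both as log2(CPM + 1), with each point a cell coloured by its group. Cells with high NODAL and high GDF3 are epiblast-like, and FST is high in most cells of the smaller trophectoderm-like cluster, which has CCR7.

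SMAD7 (ENSPTRG00000010010), an inhibitory SMAD that binds the activated type I receptor and is induced by the pathway, was present in most cells of every class. It was detected in 68.8% of hypoblast-like cells (49.99% to 83.9%), 67.6% of trophectoderm-like cells (58.03% to 76.2%) and 64% of epiblast-like cells (49.2% to 77.1%). The epiblast-, hypoblast- and trophectoderm-like classes had medians of 3.05, 3.47 and 4.07 CPM per cell. The highest cells were at 65.7, 56.6 and 99.8 CPM, and the classes overlapped over nearly the whole range. The pooled level was 11.9 CPM in hypoblast-like cells (11.3 to 12.5), 6.47 CPM in epiblast-like cells (6.13 to 6.82) and 6.63 CPM in trophectoderm-like cells (6.41 to 6.86). The hypoblast-like class was 1.84-fold and 1.795-fold above the others, short of 2-fold, and the order by medians was different from the order by pooled levels. Within trophectoderm, SMAD7 was detected in 41 of 51 cells of the smaller and 34 of 60 cells of the larger cluster, at 8.56 and 4.81 CPM.

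A wider list of 46 genes of the pathway was counted in the same way, and 44 of them matched an identifier. The co-receptors TDGF1 and CFC1 were not matched and are not analysed here. Of the 33 listed genes with a read in at least 20 cells, 7 were at least 2-fold higher in epiblast-like, 3 in hypoblast-like and 4 in trophectoderm-like cells than in both other classes, beside the 11.8%, 3.28% and 8.32% of all tested genes given above. All 11 other ligands matched but only 4 had a read in at least 20 cells. INHBA, INHBB, INHBC and INHBE, which encode beta subunits of activins, were chosen for mention after their values were seen. A read was found in 8, 3, 9 and 12 of all kept cells respectively.

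Among the signal transducers, SMAD2 was detected in 97.9% and SMAD4 in 99.5% of all kept cells. The pooled level of SMAD2 was 83.6, 61.6 and 55.5 CPM and that of SMAD4 52.4, 62.1 and 50.04 CPM in epiblast-, hypoblast- and trophectoderm-like cells. SMAD3 was less even, with reads in 80%, 68.8% and 36.04% of cells and pooled levels of 9.79, 6.29 and 1.52 CPM. FOXH1, the DNA-binding partner of SMAD2 and SMAD3 in nodal signalling, was low but was found mainly in epiblast-like cells, in 34 of these 50 against 5 hypoblast-like and 10 trophectoderm-like cells, at 0.428, 0.0389 and 0.0252 CPM. ACVR1C, which encodes the alternative type I receptor ALK7, had a read in 2 of all kept cells.

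Some regulators stood out by class. PMEPA1, a target of TGF-beta signals that restrains SMAD activity, was detected in 47 of the 50 epiblast-like cells but in only 9 hypoblast-like and 10 trophectoderm-like cells, at 13.7, 0.825 and 0.118 CPM. TGIF2, a repressor that binds SMADs, was at 79.3, 24.3 and 34.98 CPM in the epiblast-, hypoblast- and trophectoderm-like classes. The proprotein convertases, which cleave ligand precursors such as that of nodal, went in different directions. PCSK5 was highest in epiblast-like cells at 106.9 CPM, against 48.98 CPM in the hypoblast-like and 18.2 CPM in the trophectoderm-like class. FURIN was highest in trophectoderm-like cells, at 70.4 CPM against 23.9 and 33.6 CPM in the epiblast- and hypoblast-like classes, but fell to 55.3 CPM and below 2-fold over hypoblast-like cells without its top cell. PCSK6 was also highest in trophectoderm-like cells, at 10.5 CPM against 2.24 and 4.85 CPM.

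TGFBR3, the TGF-beta co-receptor betaglycan, was at 151.7 CPM in trophectoderm-like cells, against 53.4 and 70.8 CPM in the epiblast- and hypoblast-like classes. TGFBR2, the type II receptor for TGF-beta, passed the 2-fold rule in trophectoderm-like cells with a read in 48 cells, 41 of which lay in the smaller cluster. Among the target genes of mesendoderm, GSC and SOX17 passed in hypoblast-like cells and MIXL1 in epiblast-like cells. GSC, a homeobox gene known as a nodal target, was detected in 28 of the 32 hypoblast-like cells at 39.2 CPM, against 8 epiblast-like and 12 trophectoderm-like cells at 0.720 and 0.331 CPM. SOX17 was detected in 24 of the 32 hypoblast-like cells at 110.5 CPM, but it is one of the markers that named this class, so its pattern follows from the naming.

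**Figure D4:**
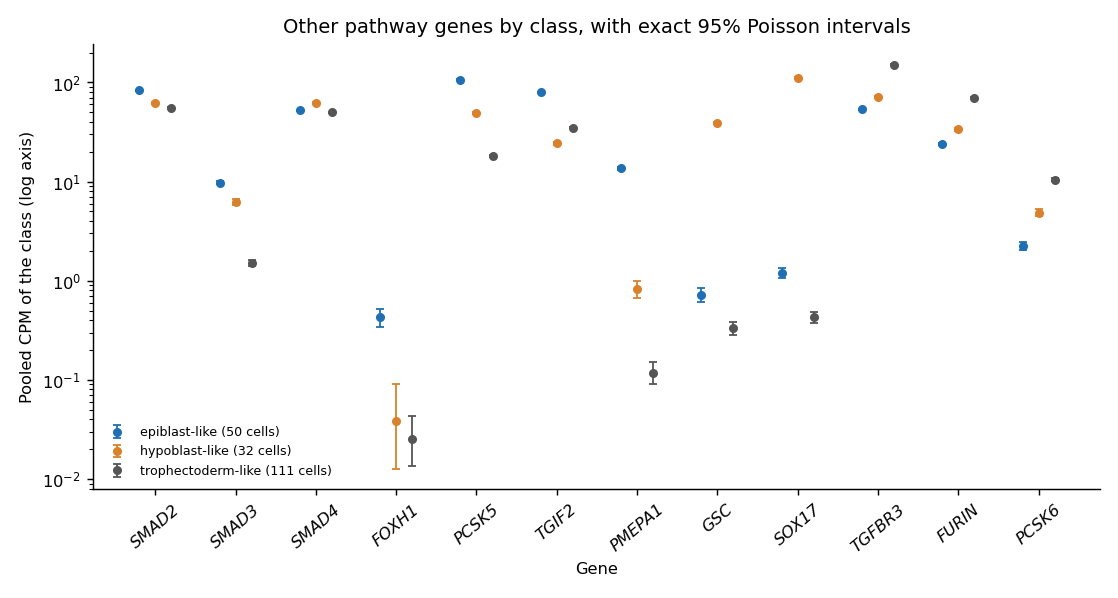
Pooled level of 12 other pathway genes in each of the 3 classes, in CPM on a log axis; points are pooled levels and bars exact 95% Poisson intervals. SMAD2 and SMAD4 lie close together across classes, whereas PMEPA1 falls from 13.7 CPM in the epiblast-like to 0.118 CPM in the trophectoderm-like class and GSC is at 39.2 CPM in hypoblast-like cells.

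Ligands and receptors were read together in most epiblast-like cells. Each was common there by itself, and whether they were found together more often than their single shares give was not tested. NODAL and GDF3 were both present in 37 epiblast-like cells (74%, 59.7% to 85.4%), 5 hypoblast-like cells (15.6%) and 4 trophectoderm-like cells (3.60%). No epiblast-like cell lacked both ligands, whereas 5 hypoblast-like cells and 71 trophectoderm-like cells (63.96%) did. In hypoblast-like cells GDF3 without NODAL was the usual state, in 22 of 32. ACVR1B and at least 1 type II receptor were found together in 84%, 84.4% and 79.3% of epiblast-, hypoblast- and trophectoderm-like cells. The full set of NODAL, GDF3, ACVR1B and a type II receptor was present in 33 epiblast-like cells (66%), 3 hypoblast-like cells (9.38%) and 4 trophectoderm-like cells (3.60%). Of the inhibitors, FST was found beside NODAL in 23 epiblast-like cells, and LEFTY1 or LEFTY2 beside NODAL in 7.

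The members varied together to different degrees within the classes. Over the 50 epiblast-like cells, Spearman's rho between the 7 members found in at least 50% of cells ranged from -0.11 to 0.47 over 21 pairs, and the highest was that of NODAL with GDF3. Over the 32 hypoblast-like cells the 15 pairs of 6 members ranged from -0.46 to 0.18, with the lowest between GDF3 and SMAD7. Within the trophectoderm-like class the 10 pairs of 5 members ranged from -0.11 to 0.42, and the highest was that of FST with SMAD7, which was 0.55 in the smaller cluster. The points share libraries and sequencing depth, and these values are descriptions without a test.

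The genes whose pattern was most like that of each member were sought over all kept cells and within the class where the member was highest. For NODAL over all cells these were LDB2, TNFAIP6 and FGF4, with rho of 0.75, 0.72 and 0.71. For GDF3 they were CACNA2D1, CXCL12 and NANOG, with 0.85, 0.83 and 0.82. FGF4 and NANOG are among the markers that named the epiblast-like class, so this likeness includes the contrast between classes. Within the 50 epiblast-like cells the nearest genes were others, MAD2L2, TMEM237 and VCAN for NODAL at 0.69, 0.64 and 0.63, and MRS2, PLAC9 and MGAT4A for GDF3 at 0.69, 0.65 and 0.63. For FST they were BHLHE40, MSX2 and GNA12 within the trophectoderm-like class, at 0.82, 0.79 and 0.78, and BHLHE40 was also nearest over all cells at 0.67. The FST values within that class include the contrast between its clusters.

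The receptors and SMAD7 had no close partner over all cells. The highest rho was 0.40 for ACVR1B with PAN3, 0.35 for ACVR2A with SLC35E1, 0.31 for ACVR2B with NEB and 0.40 for SMAD7 with SNAI1. Within single classes the highest values were 0.75 for ACVR1B with ARHGAP39 and 0.65 for SMAD7 with ACP6 over 32 hypoblast-like cells, and 0.55 for ACVR2A with ZNRF1 and 0.65 for ACVR2B with CA3 over 50 epiblast-like cells. Each is the top of a search over 12917 to 13022 genes.

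The hypoblast-like cells were also divided by FOXA2, a marker of more mature hypoblast, into 14 cells at 10 CPM or more and 18 cells below. GDF3 was lower in the cells with FOXA2, where the lowest, median and highest cells were at 0, 2.64 and 68.1 CPM, against 0, 26.1 and 203.7 CPM in the cells without. Pooled levels were 8.46 CPM (7.70 to 9.28) and 43.9 CPM (42.4 to 45.4), or 5.16 and 36.1 CPM without the top cell of each group, and 3 of 14 against 16 of 18 cells reached 10 CPM. The ranges overlapped, but most cells with FOXA2 lay below most cells without. The summed level of the 8 epiblast markers moved in the same direction, with a median of 279 CPM (94.1 to 830 CPM) with FOXA2 and 789 CPM (188.5 to 1848 CPM) without. The 9 hypoblast markers, of which FOXA2 is one, summed to a median of 2349 CPM with FOXA2 and 312 CPM without. The trophectoderm markers summed to medians of 84.6 and 169.1 CPM. The part of these markers in the difference of GDF3 was not tested.

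NODAL was read in 2 of 14 cells with FOXA2 and 3 of 18 without, at 0.130 and 1.65 CPM pooled, and without the top cell of each group these were 0.020 and 1.11 CPM. ACVR1B had medians of 13.7 and 13.6 CPM per cell and pooled levels of 22.7 and 19.02 CPM with and without FOXA2. SMAD7 had medians of 8.68 and 1.75 CPM and pooled levels of 13.9 and 10.5 CPM, which without the top cell of each group were 12.6 and 5.86 CPM. LEFTY1 had a read in 2 of 14 and 6 of 18 cells, at 0.502 and 1.85 CPM pooled, and without the top cell of each group these were 0.041 and 0.711 CPM. FST was at 7.59 and 7.61 CPM, or 3.79 and 3.49 CPM without the top cells. ACVR2A was at 14.5 and 9.52 CPM and ACVR2B at 4.18 and 5.12 CPM. LEFTY2 and CER1 had no read in either group. Median depth was 3510354 reads with FOXA2 and 4386432 reads without.

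**Figure D5:**
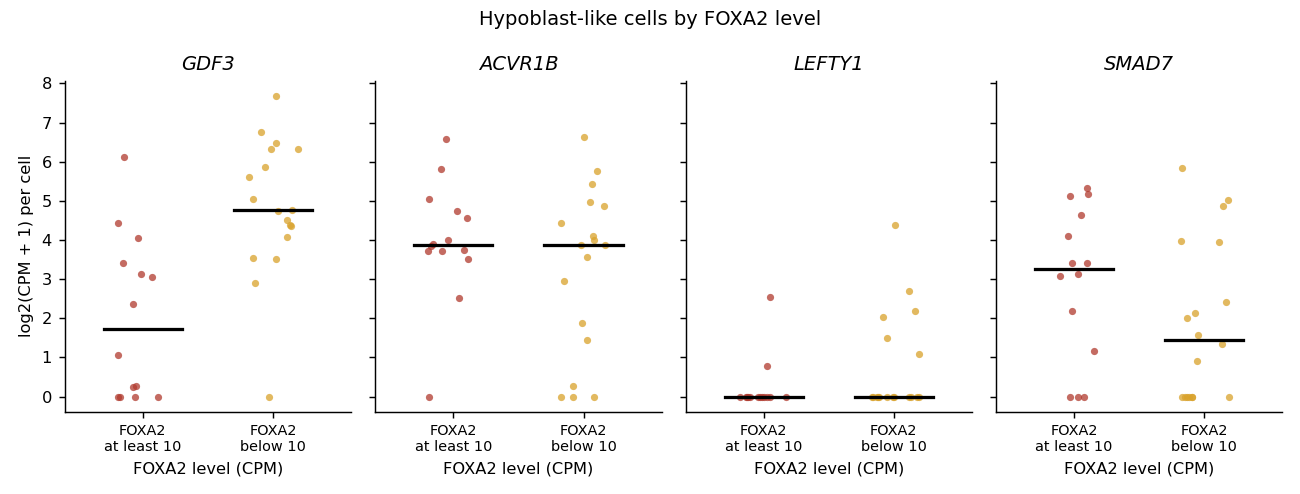
Level of 4 members in hypoblast-like cells, 14 with at least 10 CPM of FOXA2 and 18 below, as log2(CPM + 1); points are cells and bars medians. GDF3 has a median of 2.64 CPM with FOXA2 and 26.1 CPM without, while ACVR1B has medians of 13.7 and 13.6 CPM.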

How the data were processed

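The authors deposited read counts per Ensembl gene for single cells of day 4 blastoids, made by SMART-seq2 without molecular identifiers and not normalized. Per the study's methods, reads were trimmed with FastP and aligned and counted with STAR on the chimpanzee genome. The submitters' processing notes name Trim Galore 0.6.6, STAR 2.7.7a and the build GRCh38 for the series without saying for which data. The identifiers are those of chimpanzee, and no coordinates or sequences are given here. Symbols came from a table that covers 18783 of 33729 identifiers, and identifiers sharing a symbol, such as the pair of FOXH1, were summed. Whether counting used strand is not given in the sources used here.

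Of 217 cells, 193 had at least 4000 reads and 8000 detected genes and were kept, 111 of them trophectoderm-like. The study states fewer cells than the 193 that its filter left here. Genes with a read in at least 20 cells were clustered with Scanpy 1.11.5 and leidenalg 0.10.2 (total-count normalization, log1p, 50 principal components, 30 neighbours, resolution 1, seed 0). Clusters were named by the highest mean z-score of a marker list with at least 3 markers detected. The marker lists included POU5F1, NANOG, SOX2, KLF17, PRDM14, FGF4, SUSD2 and DPPA2 for epiblast, PDGFRA, GATA4, SOX17, FOXA2, RSPO3, COL4A1, NID2 and APOA1 for hypoblast, and GATA3, GATA2, CDX2, TEAD3, KRT7, ENPEP, NR2F2, ABCG2, CGA and CCR7 for trophectoderm. A few listed genes are not reported here. No member was among the markers. Doublets were neither called nor removed.

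With 1 sample no test between classes was run. Where no read was found, the limit that 3 counts allow is given. Other pathway genes were named if they were SMAD2, SMAD3, SMAD4, FOXH1, TDGF1 or ACVR1C, or at least 2-fold higher in 1 class than in both others with a read in at least 50% of its cells. MIXL1, TGFBR2, INHBA, INHBB, INHBC and INHBE fall outside this rule where they are named. So do the amnion and primitive streak or mesoderm markers. The 3 genes with the highest Spearman correlation of log2(CPM + 1) were named per member. Members and lists were chosen with earlier results of these data known. The fold calculation was checked on simulated counts. Alternatives covered the filters, the clustering, detection, the summary and scaling of CPM and the fold.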

Additional observations from a re-analysis of the deposited data

Results flagged for a closer look

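The 24 cells left out for few detected genes were in no comparison above, and 8 members had more than 3 reads in them. A read of NODAL was present in 2, GDF3 in 9, ACVR1B in 12, ACVR2A in 12, ACVR2B in 12, LEFTY1 in 2, FST in 7 and SMAD7 in 7 of these cells. The only CER1 read of the series was in 1 of them. LEFTY1 had 309 reads in these 2 cells, against 294 reads in all kept cells, and FST had 15249 reads, 11791 of them in 1 cell. The class of these cells was not determined, and their values were not compared with those of the kept cells by a test.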

How the results depend on the processing

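No paired analysis was possible because the cells form 1 sample and no result comes from a test. Promoter motifs were not run, since no promoter sequence was given. Of the recomputed counts of members, 14 moved by more than 1.5 times the reported count and the rest did not. Of the other recomputed values, 26.5% of CPM levels and 7.06% of shares left their 95% counting interval, and 10.1% of log2 ratios moved by more than 1.5-fold or reversed. At a Leiden resolution of 1.5 no member was highest (0) or called 2-fold (0) in trophectoderm-like cells, and the log2 ratio of FST over epiblast-like cells was -0.79. In the larger trophectoderm-like cluster alone 0 members were called and this ratio was -0.012. Without cells holding markers of another class, 5 hypoblast-like cells remained, 2 members were called there (ACVR1B and SMAD7) and 3 were highest in trophectoderm-like cells. Detection from 10 CPM left 2, 2 and 0 members in at least 50% of epiblast-, hypoblast- and trophectoderm-like cells. By median CPM, 1 member was highest in hypoblast-like and 2 in trophectoderm-like cells. In hypoblast-like cells a fold of 1.5 called 2 members, a fold of 4 called 0 and no filter on genes called 2. The alternatives chosen after seeing the data were cells in accession order and leaving out the cell with the most CPM of a member. The latter made 2 members highest in trophectoderm-like cells, since LEFTY2 rested on 1 epiblast-like cell. Shares under 9.38% in hypoblast-like cells are beyond the depth of 32 cells.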
